A study of Mus musculus with 12 samples.

Results

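Aminoacyl-tRNA synthetases are the enzymes that attach each amino acid to its transfer RNA, and 38 genes of this group were followed here in cultured mouse lung endothelial cells (MLECs). The genes were listed by symbol, with earlier results of these data known, and taken from a deposited table of 28689 genes. They were 19 genes of cytosolic synthetases, 16 genes of mitochondrial synthetases and the 3 genes Aimp1, Aimp2 and Eef1e1, whose proteins hold several cytosolic synthetases together. All 38 were listed in the table, and all 38 were among the 12467 genes that reached at least 1 FPKM (fragments of a library per gene, scaled by its length and by the depth) in at least 6 of the 12 libraries and were therefore tested.

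The libraries came from MLECs of mice labelled as endothelial double knockouts of the transcription factors Sp1 and Sp3 (dKO, 6 libraries) and of control mice (CTR, 6 libraries), and the comparison asked which transcripts differ between them. dKO mice carried VE-CAD-CreERT2+/Sp1 fl/fl/Sp3 fl/fl, in which a tamoxifen-activated Cre recombinase is driven by the VE-cadherin promoter. CTR mice were littermates that carried VE-CAD-CreERT2-/Sp1 fl/fl/Sp3 fl/fl, although GEO lists the genotype of these samples as WT. Both groups therefore carried the floxed alleles and received tamoxifen, whereas only dKO mice carried Cre, so that an effect of the activated Cre itself cannot be told apart from the deletion. The cells were taken from lungs of adult mice with beads against CD31, grown, selected again with beads against ICAM2 and used at early passages. The study describes its replicates as biologically independent, but which mice went into which library is not given in the sources used here, so the p-values measure the spread between these libraries, which may be partly technical.

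Each library held between 15523054 and 17938286 fragments on genes. Sp1 was lower in each dKO library than in each CTR library, at 10.6 ± 1.53 FPKM against 21.2 ± 1.77 FPKM (mean ± SD, n = 6 and 6), with an adjusted p of 5.68e-06 (limma, Benjamini-Hochberg). Sp3 had 27.7 ± 2.31 FPKM in CTR and 25.0 ± 1.64 FPKM in dKO and did not pass the test (log2 fold change -0.14, adjusted p = 0.0902, limma with Benjamini-Hochberg), with 2 of the 6 dKO libraries below each CTR library. The columns of the dKO group are named after tamoxifen, so their match rests on the labels and on Sp1. By immunofluorescence, the study reports less Sp1 and Sp3 protein in the aortic endothelium of dKO mice, which is another tissue and another measure than the transcripts here. A label on extraction speaks of retinas, but 6 retina markers summed to at most 0.209 FPKM in any library, and all 10 endothelial markers passed the filter on low values. The endothelial markers summed to 177 to 273 FPKM in CTR and 317 to 434 FPKM in dKO, whereas 8 fibroblast markers, collagens among them, summed to 2581 to 3593 FPKM in CTR and 1328 to 2480 FPKM in dKO. The fibroblast sum rests mostly on Col1a1, Col1a2, Col3a1 and Fn1, and these markers did not move together, since the 3 collagens were lower and Dcn was higher in dKO. Of 10 macrophage, 10 tested interferon-response and 10 endothelial marker genes, 10, 10 and 9 were higher in dKO (limma), and Flt1 was the endothelial marker that did not pass the test. The macrophage markers summed to 2326 to 5302 FPKM in dKO against 717 to 1257 FPKM in CTR, and their part in the results below was not tested.

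Cells keep separate synthetase sets for protein synthesis in the cytosol and in mitochondria, and nuclear genes encode all of these enzymes. Several cytosolic synthetases sit together in the multi-synthetase complex around the scaffold proteins, while the others work free. Many cytosolic synthetase genes are known targets of ATF4, the transcription factor that raises genes of amino-acid supply when amino acids run short. Wars1 is also known to be induced by interferon, and Gars1 and Kars1 supply the enzyme to both compartments.

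Most of the cytosolic synthetase transcripts were lower in dKO, and so were several of the mitochondrial ones, while the difference between the classes was not tested. Of the 19 cytosolic genes, 16 were lower at an adjusted p under 0.05 (limma on log2(FPKM + 1), Benjamini-Hochberg over all 12467 genes tested) and 0 were higher, against 32.6% of all tested genes lower and 20.4% higher. Their median log2 fold change was -0.89, while the median of all tested genes was -0.10. Of the 16 mitochondrial genes, 9 were lower by the same test and 0 were higher, with a median of -0.23. Ears2, 1 of these 9, passed the filter on low values through the CTR libraries, and 8 of the other 15 were lower. Of the 3 scaffold genes, 2 were lower, and the median was -0.47. In 13 of the cytosolic, 3 of the mitochondrial and 1 of the scaffold genes, the highest dKO library was below the lowest CTR library, which was so for 16.1% of all tested genes. A fall of more than 0.5 on the log2 scale with an adjusted p under 0.05 was seen in 14 cytosolic, 4 mitochondrial and 1 scaffold gene, against 12.2% of all tested genes. The mitochondrial count was less firm than the cytosolic one, since it fell to 5 when any 1 of the dKO replicates 2, 3, 4, 5 or 6 was left out. A count of 5 of 16 is near the 32.6% of all tested genes that were lower with all 12 libraries. Among the 8311 tested genes within the CTR levels of the mitochondrial class, 35.3% were lower. The 3 of 16 mitochondrial genes without overlap are likewise near the share of 16.1%. The cytosolic count stayed between 15 and 17 without any 1 library.

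**Figure D1:**
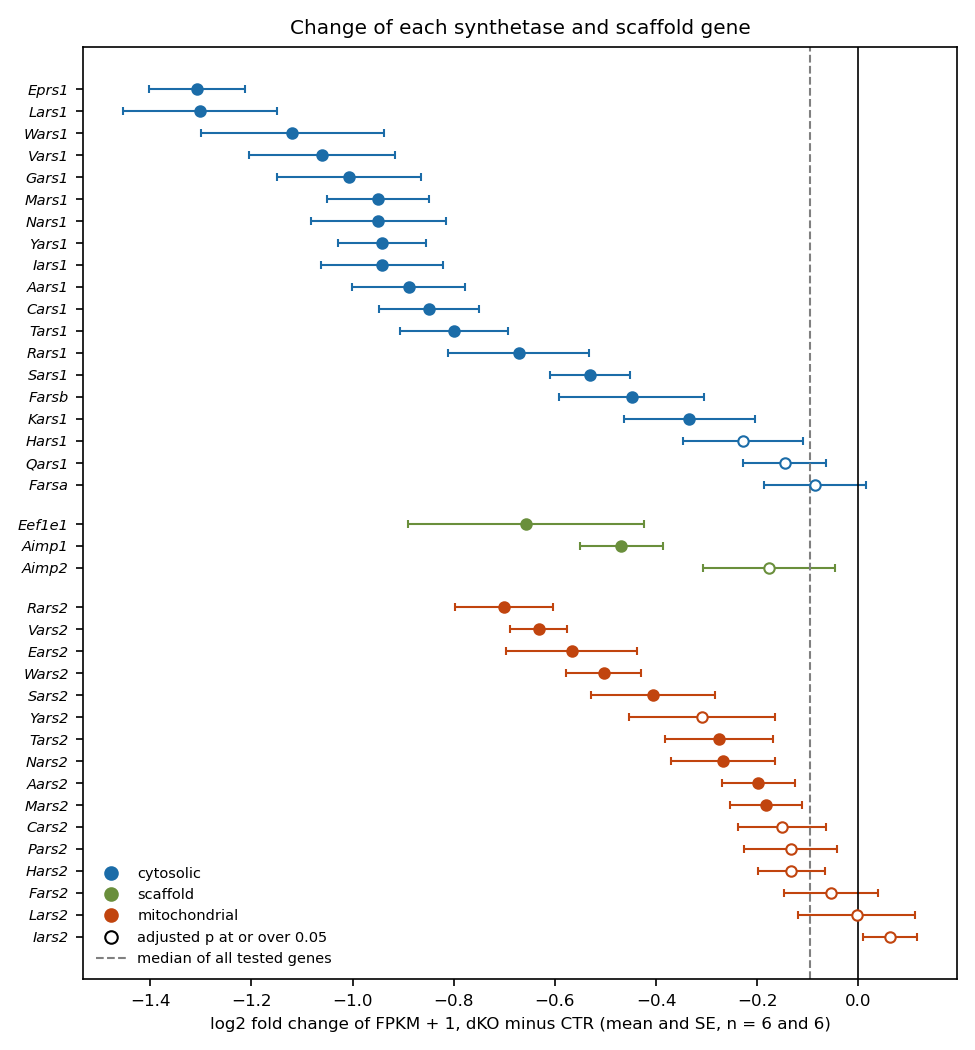
Each row is a gene and its point is the log2 fold change of FPKM + 1 in dKO against CTR, with the standard error of the limma fit as the bar (6 libraries a group). Filled points have an adjusted p under 0.05, and the dashed line marks the median of all tested genes at -0.10. The cytosolic genes reach down to -1.31 for Eprs1, and the mitochondrial genes end at -0.70 for Rars2.

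The classes also differed in level. In CTR, the mean FPKM of a cytosolic gene ranged from 11.9 for Farsa to 215 for Nars1, with a median gene at 41.4, while that of a mitochondrial gene ranged from 1.78 for Nars2 to 19.2 for Lars2, with a median gene at 4.41. A pseudocount of 1 shrinks the fold change of low genes, so the mitochondrial class was also described without it. As the log2 ratio of the group means with no pseudocount, the median was -0.92 for cytosolic and -0.31 for mitochondrial genes. The 4349 tested genes whose CTR mean lay within the range of the cytosolic class had a median log2 ratio of -0.09 on that scale, and the 8311 genes within the range of the mitochondrial class had a median of -0.15. Summed over the class, the cytosolic transcripts fell from 1191 ± 226 FPKM in CTR to 646 ± 55.3 FPKM in dKO (mean ± SD, n = 6 and 6), which is 54.3% of the CTR level. The mitochondrial sum went from 93.5 ± 7.08 FPKM to 77.5 ± 5.08 FPKM, or 83.0% of CTR. In bulk samples, fewer cells of a type and less RNA per cell cannot be told apart.

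**Figure D2:**
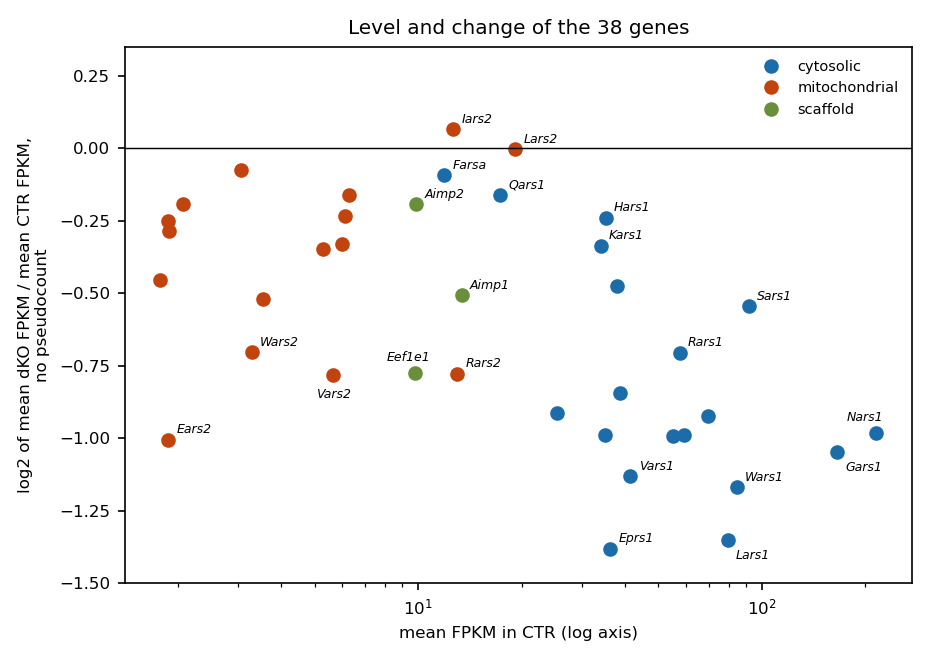
Each point is a gene, placed by its mean FPKM in CTR (log axis) and by the log2 ratio of its mean FPKM in dKO to that in CTR without a pseudocount. The cytosolic genes lie at 11.9 FPKM or above and most sit near a ratio of -1, whereas the mitochondrial genes lie at or below 19.2 FPKM and spread from Ears2, near a ratio of -1, to Iars2 at 0.07.

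The cytosolic genes known as ATF4 targets held 997 of the 1191 FPKM of the class in CTR. All 13 cytosolic genes of that kind were lower in dKO, they are the same 13 genes in which the groups did not overlap, and their log2 fold changes ran from -1.31 to -0.53 with a median of -0.95. Of all tested genes, 32.6% were lower and 16.1% had no overlap in this direction, and 31.4% of the 1963 tested genes within the CTR levels of these 13 were lower. The summed level of the 13 fell from 997 ± 200 FPKM to 500 ± 34.6 FPKM. Of the 6 other cytosolic genes, Rars1, Farsb and Kars1 were lower and Farsa, Hars1 and Qars1 did not pass the test, with a median of -0.28 and overlapping groups for each of the 6. The split follows textbook knowledge of ATF4 targets, was made with results of these libraries known, and is given as a description with no test of the difference, from which no support is drawn.

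The start regions of the genes were read for the letters of the GC box, to which Sp factors bind, and for the core of the amino-acid response element, to which ATF4 binds. RefSeq promoter windows of 250 bases before to 50 bases after the start (table of build GRCm38.p6) were held for 29 of the 38 genes, and each window was found once in GRCm39. The response core TGATGNAA, on either strand, lay in the window of 5 of 12 cytosolic genes and 0 of 14 mitochondrial genes, against 4.51% of all genes with a window. The GC box GGGCGG, on either strand and with matches allowed to overlap, lay in 7 of 12 cytosolic and 11 of 14 mitochondrial genes, against 38.2% of all genes with a window. These 27025 genes were not limited to the tested ones, whereas all 38 members were tested, so the shares compare unlike sets. In the 250 bases before the start alone, the response core lay in 3 of the 12 cytosolic genes, against 3.91% of all genes with a window. A match of letters is a description and shows no binding. The 5 genes with the response core, Aars1, Gars1, Iars1, Tars1 and Yars1, all belong to the 13 known ATF4 targets. Most of the 12 cytosolic genes with a window belong to them too. Eprs1, Mars1 and Sars1, also of the 13, had a window without the core, as did Farsa, Farsb, Kars1 and Qars1. No support for the split is drawn from the matches. For each of the 5 genes, 30 bases around 1 match are shown so that the shared core can be read. They were chosen after the motifs were seen. The sequences run 5′ to 3′ on the gene's strand, capitals mark the core, and the position of its first base is counted from the start, the bases before it being negative.
Aars1 (chr8:111760472-111760501, plus strand, first base at 10): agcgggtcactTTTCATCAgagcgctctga
Gars1 (chr6:55014945-55014974, plus strand, first base at -30): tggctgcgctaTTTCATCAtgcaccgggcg
Iars1 (chr13:49835602-49835631, plus strand, first base at 8): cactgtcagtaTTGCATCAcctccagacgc
Tars1 (chr15:11399741-11399770, minus strand, first base at -15): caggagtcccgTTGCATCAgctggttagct
Yars1 (chr4:129083688-129083717, plus strand, first base at 4): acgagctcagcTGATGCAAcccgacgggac

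For the GC box, the sites of Eprs1, Rars2 and Vars2 are shown, which had the largest fold changes of their class among genes with a window and a match. Capitals mark the GC box on either strand, and coordinates are of GRCm39.
Eprs1 (chr1:185095183-185095212, plus strand, first base at -46): gcgcgtggagtgGGGCGGagcgaaggctgc
Rars2 (chr4:34614747-34614776, plus strand, first base at -198): acctgggcaaagCCGCCCgagtcctgttct
Vars2 (chr17:35978685-35978714, minus strand, first base at -218): aggtccagccccGGGCGGgcagctttccaa
Vars2 (chr17:35978495-35978524, minus strand, first base at -28): gcctgcgtgtccCCGCCCacgcatgcgcgc

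The cytosolic genes that fell most were Eprs1, Lars1, Wars1 and Vars1. Eprs1 (chr1:185095101-185161840, plus strand) encodes the bifunctional enzyme that charges glutamate and proline, and its GC box site is shown above. It had 27.1 FPKM in the lowest CTR library, a median of 37.6 and 42.4 in the highest, against 13.2, 13.8 and 15.3 in dKO. The groups were far apart, and the dKO libraries lay close together. The log2 fold change was -1.31 ± 0.10 (SE), with an adjusted p of 8.17e-07 (limma, Benjamini-Hochberg), and only 0.842% of the tested genes had a lower fold change.

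Lars1 encodes the leucine enzyme of the complex, which is also known as a sensor of leucine. Its FPKM ran from 51.3 over a median of 80.1 to 107 in CTR and from 25.5 over 30.7 to 36.6 in dKO. The groups did not overlap, and the log2 fold change was -1.30 ± 0.15 (SE, adjusted p = 2.17e-05, limma with Benjamini-Hochberg). Vars1, the valine enzyme, had 26.5, 42.7 and 53.0 FPKM as its lowest, median and highest CTR values and 16.2, 18.9 and 21.5 FPKM in dKO. Its log2 fold change was -1.06 ± 0.14 (SE, adjusted p = 7.05e-05, limma with Benjamini-Hochberg), again with no overlap.

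Wars1, the tryptophan enzyme, had 50.9 FPKM in the lowest CTR library, a median of 85.8 and 123 in the highest, against 30.7, 34.5 and 47.3 in dKO. Its groups lay close to each other at their edges but did not overlap, and its log2 fold change was -1.12 ± 0.18 (SE, adjusted p = 0.000248, limma with Benjamini-Hochberg). Of the 10 tested genes of the interferon-response list, all 10 rose in dKO by the same test. The median of their log2 fold changes was 2.16. Summed over all 11 listed genes, the level was 127 to 457 FPKM in dKO against 39.5 to 53.1 FPKM in CTR. Wars1 thus moved the other way from that list.

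The other known ATF4 targets had log2 fold changes between -1.01 for Gars1 and -0.53 for Sars1. Gars1 and Nars1, the glycine and asparagine enzymes, were the most abundant members, and Gars1 fell from 166 ± 38 to 80.1 ± 6.70 FPKM while Nars1 fell from 215 ± 48.5 to 109 ± 9.02 FPKM (mean ± SD, n = 6 and 6). Mars1, Yars1, Iars1, Aars1, Cars1 and Tars1, the enzymes for methionine, tyrosine, isoleucine, alanine, cysteine and threonine, had log2 fold changes between -0.95 and -0.80. Sars1, the serine enzyme, fell least of the 13, from 91.7 ± 10.5 to 63.0 ± 4.24 FPKM, with a standard error of 0.08 for its log2 fold change (adjusted p = 0.000145, limma with Benjamini-Hochberg).

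The 6 remaining cytosolic genes showed a weaker and uneven pattern. Rars1, the arginine enzyme, fell from 57.6 ± 12.4 to 35.4 ± 5.10 FPKM (adjusted p = 0.00141, limma with Benjamini-Hochberg), with 5 of 6 dKO libraries below each CTR library. Farsb and Farsa encode the subunits of the phenylalanine enzyme. Farsb had a log2 fold change of -0.45 ± 0.14 (SE, adjusted p = 0.0185), while Farsa had -0.09 ± 0.10 (SE, adjusted p = 0.495, both limma with Benjamini-Hochberg), and the difference between the subunits was not tested. Kars1, the lysine enzyme, was called at -0.33 (adjusted p = 0.0436, limma with Benjamini-Hochberg), a call that was lost in 12 of 27 alternative analyses. Hars1 for histidine stood at -0.23 and Qars1 for glutamine at -0.15, and neither passed the test (adjusted p of 0.119 and 0.15, limma with Benjamini-Hochberg). Hars1 was called lower in 5 of 27 alternative analyses and Qars1 in 3.

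The fall was seen both in the multi-synthetase complex and outside it. Of its 7 synthetases, 6 were lower, with a median log2 fold change of -0.94, and of the 12 free cytosolic synthetases 10 were lower, with a median of -0.87. By fold of the enzyme, 8 of 9 class I synthetases were lower, with a median of -0.94, and 7 of 9 class II synthetases, with a median of -0.53, Eprs1 holding both folds and being counted in neither. Over all tested genes, 32.6% were lower and the median was -0.10. Within the complex, Eprs1 and Lars1 fell most, and Qars1 was the member that did not pass the test.

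Among the scaffold proteins, Aimp1 showed the clearest difference. Aimp1 (chr3:132366242-132390131, minus strand) anchors the arginine and glutamine enzymes in the complex. Its lowest, median and highest values were 12.1, 13.3 and 15.4 FPKM in CTR and 8.27, 9.07 and 11.0 FPKM in dKO. The groups did not overlap, and the log2 fold change was -0.47 ± 0.08 (SE, adjusted p = 0.000464, limma with Benjamini-Hochberg).

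Eef1e1 (also named Aimp3) holds the methionine enzyme, and it varied widely within each group. It had 5.24, 9.79 and 16.9 FPKM as its lowest, median and highest CTR values and 4.01, 5.03 and 10.0 FPKM in dKO. The groups overlapped, with 4 of 6 dKO libraries below each CTR library. dKO replicate 1 held 10.0 FPKM, while the other 5 dKO libraries reached 5.54 FPKM at most. The log2 fold change of -0.66 ± 0.23 (SE, adjusted p = 0.0307, limma with Benjamini-Hochberg) was not past the threshold in 9 of 27 alternative analyses, 8 of which each left out 1 library.

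Aimp2 ran from 7.79 over a median of 10.4 to 12.3 FPKM in CTR and from 6.74 over 8.27 to 12.1 FPKM in dKO. In 4 of the 6 dKO libraries it lay within the CTR range and in 2 below it, and its log2 fold change of -0.18 ± 0.13 (SE, adjusted p = 0.266, limma with Benjamini-Hochberg) did not pass the test. In the GENCODE vM39 annotation its exons share 2578 bases with Eif2ak1 on the other strand, and the strand setting of the counting is not given in the sources used here.

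**Figure D3:**
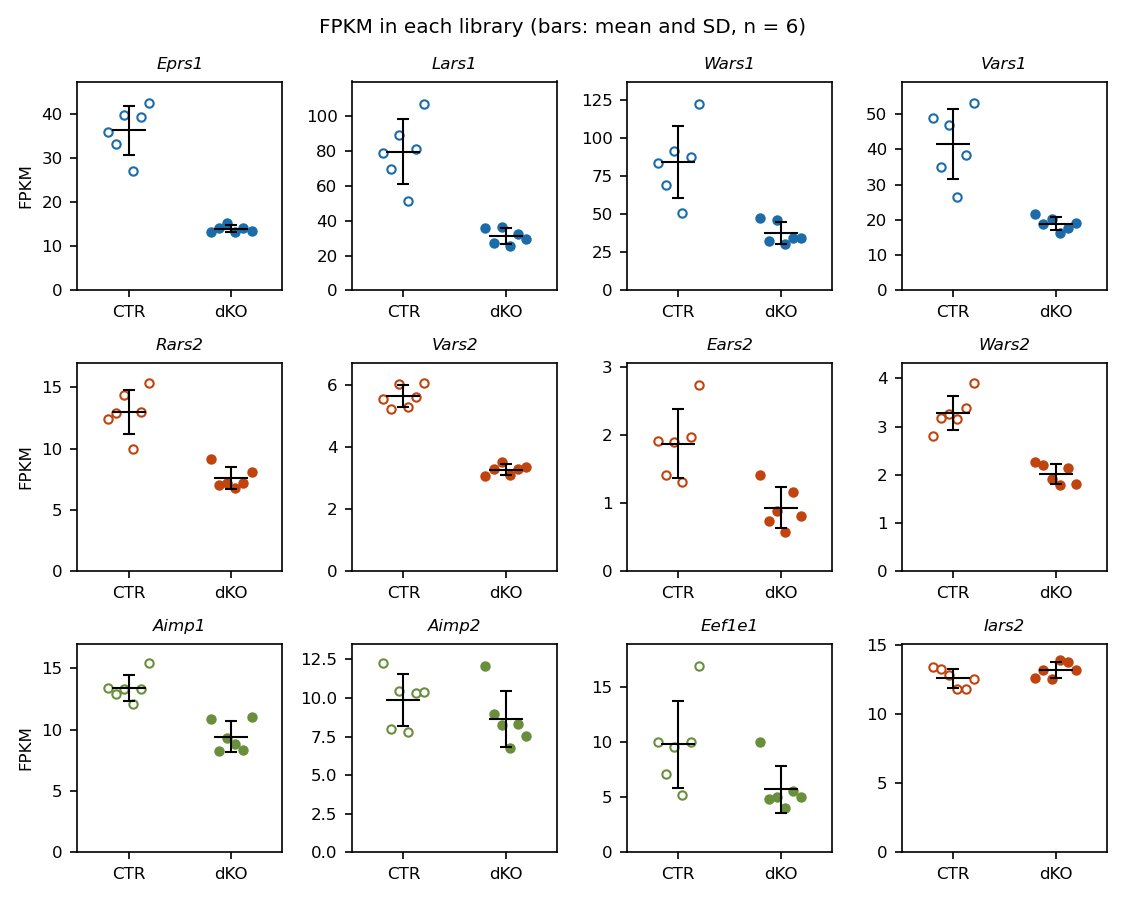
Each point is the FPKM of 1 library, open for CTR and filled for dKO, with the mean and SD of 6 libraries as bars, in blue for cytosolic, red for mitochondrial and green for scaffold genes. Eprs1, Lars1, Wars1, Vars1, Rars2, Vars2, Wars2 and Aimp1 show no overlap between the groups, while 1 dKO library of Ears2, 2 of Eef1e1 and 4 of Aimp2 reach into the CTR range and Iars2 stays near 13 FPKM in both.

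The mitochondrial genes with the largest change were Rars2, Vars2, Ears2 and Wars2. Rars2 (chr4:34614638-34660904, plus strand), the mitochondrial arginine enzyme, had 10.0, 12.9 and 15.3 FPKM as its lowest, median and highest CTR values against 6.80, 7.20 and 9.18 FPKM in dKO. No dKO library reached the CTR range, and the log2 fold change was -0.70 ± 0.10 (SE, adjusted p = 7.58e-05, limma with Benjamini-Hochberg). Vars2, the valine enzyme, varied little within the groups, with 5.23, 5.59 and 6.08 FPKM in CTR and 3.08, 3.30 and 3.52 FPKM in dKO. Its log2 fold change was -0.63 ± 0.06 (SE, adjusted p = 3.37e-06, limma with Benjamini-Hochberg). The GC box letters of Rars2 and Vars2 are those printed above.

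Wars2, the tryptophan enzyme, fell from a range of 2.80 to 3.90 FPKM with a median of 3.22 in CTR to a range of 1.79 to 2.26 FPKM with a median of 2.02 in dKO. The groups did not overlap, and the log2 fold change was -0.50 ± 0.07 (SE, adjusted p = 0.000124, limma with Benjamini-Hochberg), or -0.70 as a ratio of means without a pseudocount. Ears2, the glutamate enzyme, was among the lowest members, with 1.31, 1.90 and 2.73 FPKM in CTR and 0.584, 0.851 and 1.41 FPKM in dKO. It rested on 54 to 239 fragments a library, and dKO replicate 1 lay within the CTR range. In dKO, 4 of its 6 values were below 1 FPKM, so that it passed the filter on low values through the CTR libraries. Its log2 fold change was -0.57 ± 0.13 (SE, adjusted p = 0.00274, limma with Benjamini-Hochberg), and without a pseudocount its mean level was 49.9% of that in CTR.

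Sars2, the serine enzyme, was the fifth mitochondrial gene that passed the test in each of the alternative analyses, with 3.53 ± 0.456 FPKM in CTR and 2.46 ± 0.723 FPKM in dKO (mean ± SD, n = 6 and 6). Aars2, Mars2, Nars2 and Tars2 passed it narrowly, with adjusted p between 0.0352 and 0.0464 (limma, Benjamini-Hochberg) and log2 fold changes between -0.28 and -0.18, and each lost the call in 11 to 16 alternative analyses. Cars2, Fars2, Hars2, Pars2, Yars2, Lars2 and Iars2 did not pass the test. The sign of Fars2 and Lars2 turned positive under median-of-ratios scaling, so no direction is drawn for these. Mars2 was called lower, but its sign turned when trends on gene length and GC content were removed.

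Iars2 and Lars2, the most abundant of the mitochondrial genes beside Rars2, stood close to their CTR level. Iars2, the isoleucine enzyme, had 12.6 ± 0.685 FPKM in CTR and 13.2 ± 0.561 FPKM in dKO, with a log2 fold change of 0.06 (95% interval from -0.05 to 0.18, adjusted p = 0.336, limma with Benjamini-Hochberg). With median-of-ratios scaling the same gene was called higher, at 0.15. Lars2, the leucine enzyme, had 19.2 ± 3.05 FPKM in CTR and 19.2 ± 3.11 FPKM in dKO (mean ± SD, n = 6 and 6), with a 95% interval of the log2 fold change from -0.25 to 0.25.

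The CTR libraries kept a steady order across the cytosolic genes, the dKO libraries less so. Within CTR, replicate 4 was the lowest library for 18 of the 19 cytosolic genes and replicate 6 the highest for 16, and both held for all 13 known ATF4 targets. Within dKO, replicate 4 was the lowest for 14 cytosolic genes and replicate 1 the highest for 10, and among the 13 known ATF4 targets for 10 and 5. The summed cytosolic level was 848 FPKM in CTR replicate 4 and 1500.0 FPKM in CTR replicate 6, while the dKO libraries lay between 575 and 738 FPKM. The dKO libraries thus stood closer together than the CTR libraries, and the lowest CTR library was still above the highest dKO library. For the mitochondrial genes, dKO replicate 1 was the highest of its group in 10 of 16, and its summed level of 85.2 FPKM was above the 83.2 FPKM of CTR replicate 4.

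**Figure D4:**
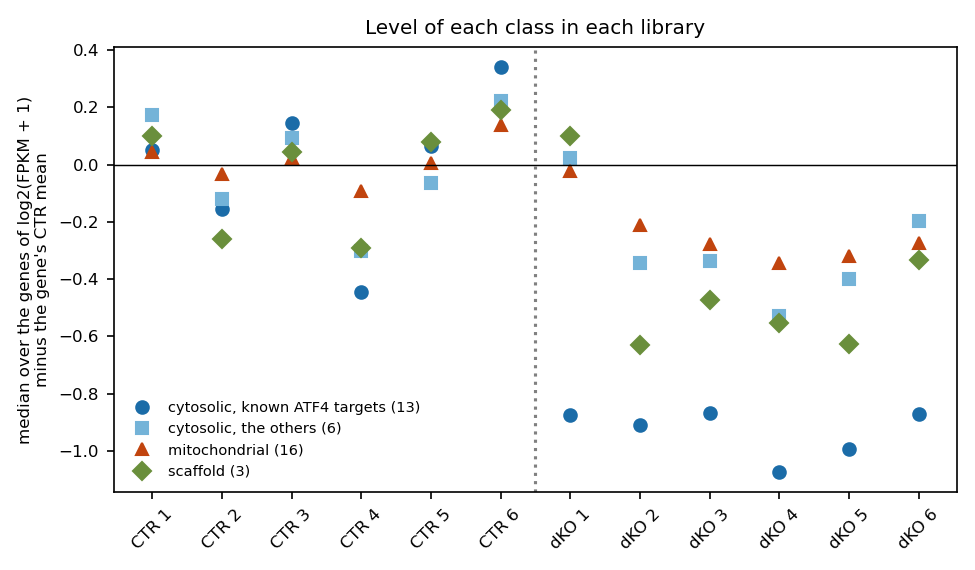
Each point is the median over the genes of a class of log2(FPKM + 1) in a library, after the CTR mean of each gene was taken away, for 6 CTR and 6 dKO libraries. The known ATF4 targets lie between -1.07 and -0.87 in dKO and between -0.44 and 0.34 in CTR, whereas in dKO replicate 1 the mitochondrial genes, the scaffold genes and the other cytosolic genes are within the CTR range.

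To compare the compartments for the same amino acid, the ratio of the cytosolic to the mitochondrial gene was taken within each library, which leaves out the scaling of the library apart from the pseudocount. The ratios printed are of FPKM, whereas the changes of the log2 ratio are of FPKM + 1 where nothing else is said. Of 17 such pairs, 12 had a lower ratio in dKO at an exact permutation p under 0.05 and 0 had a higher one, and 16 had a negative change. Without a pseudocount the numbers were 11, 0 and 15. The pair that was lost is Eprs1 to Ears2, and Ears2 had passed the filter on low values through the CTR libraries. The exact permutation test was two-sided over the 12 libraries, its p was not adjusted for the number of pairs, and the smallest p it can give is 0.00216. Eprs1 and Fars2 each enter 2 pairs, so the pairs are not independent. No share over other pairs of genes was computed, and of single genes 32.6% were lower and 20.4% higher.

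The ratio of Lars1 to Lars2 changed most. It was 3.25 in the lowest CTR library, 4.08 at the median and 5.11 in the highest, against 1.33 in the lowest and 1.60 at the median of dKO. The change of the log2 ratio was -1.30 (exact permutation p = 0.00216), or -1.33 without a pseudocount, and no dKO library reached the CTR range. Lars1 fell by the test across all genes, while Lars2 did not pass it.

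For proline, the ratio of Eprs1 to Pars2 went from a range of 12.1 to 22.4 in CTR to 5.42 to 9.99 in dKO, a change of -1.17 on the log2 scale, or -1.16 without a pseudocount. For isoleucine, the ratio of Iars1 to Iars2 went from a range of 3.22 to 5.63 to a range of 1.87 to 2.33, a change of -1.01, or -1.03 without a pseudocount. For methionine, the ratio of Mars1 to Mars2 went from a range of 25.9 to 36.8 to a range of 14.4 to 25.0, a change of -0.77, or -0.68 without a pseudocount. In all 3 the groups did not overlap (exact permutation p = 0.00216 each), with and without a pseudocount.

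The ratios of Aars1 to Aars2, Nars1 to Nars2, Yars1 to Yars2 and Tars1 to Tars2 were also lower without overlap, with changes of the log2 ratio between -0.69 and -0.52. Those of Cars1 to Cars2, Wars1 to Wars2 and Vars1 to Vars2 were lower with overlap (exact permutation p between 0.00433 and 0.0195). The ratio of Eprs1 to Ears2 depended on the pseudocount, with a change of -0.74 and an exact permutation p of 0.00216 with it but -0.34 and 0.128 without it. For 5 pairs the test was not passed, namely Farsb to Fars2 (exact permutation p = 0.0714), Sars1 to Sars2 (0.318), Hars1 to Hars2 (0.582), Farsa to Fars2 (0.836) and Rars1 to Rars2 (0.758). In the arginine pair, both genes were lower, and their ratio was 4.43 ± 0.645 in CTR and 4.66 ± 0.199 in dKO.

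**Figure D5:**
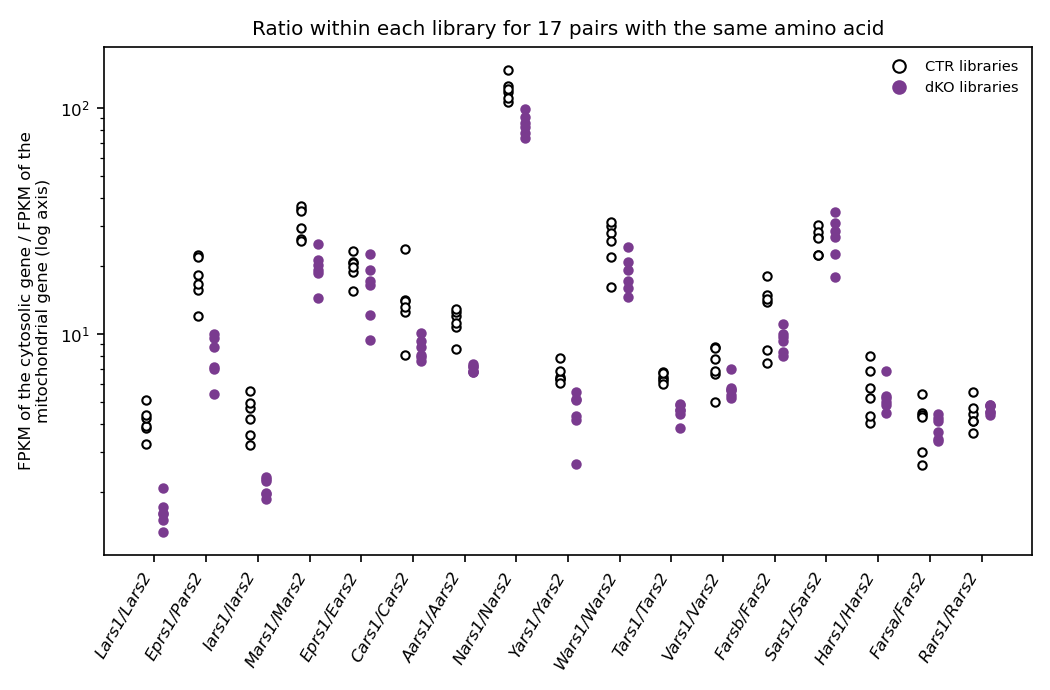
Each point is the ratio of the FPKM of a cytosolic gene to that of the mitochondrial gene for the same amino acid in 1 library, on a log axis, open for CTR and filled for dKO. The pairs are ordered by the change of the log2 ratio of FPKM + 1, from Lars1 to Lars2 at -1.30 on the left to Rars1 to Rars2 at 0.03 on the right.

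Other genes of tRNA charging, taken from a fixed list, were mostly lower too. Of 13 tested, 11 fell in dKO by limma and 0 rose, and the median of the log2 fold changes was -0.47. Xpot, which exports tRNA from the nucleus, fell from 51.5 to 24.2 FPKM. Of 5 cytosolic elongation factors, 4 were lower, with a median of -0.48, against 32.6% lower and a median of -0.10 for all tested genes. Of 6 mitochondrial translation factors 3 were lower, with a median of -0.17, and Tufm, the mitochondrial elongation factor, stood at 0.04 and did not pass the test.

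Genes of the amino-acid response moved with the cytosolic synthetases. Of 20 such genes, 16 fell and 0 rose (limma), the median of the log2 fold changes was -0.86, and 15 had groups that did not overlap, against 32.6% lower, 20.4% higher and 16.1% without overlap among all tested genes. Their summed level was 1155 to 2062 FPKM in CTR and 676 to 829 FPKM in dKO. Atf4 itself fell from 314 to 173 FPKM, Asns, which makes asparagine, from 144 to 34.6 FPKM, and Slc7a5, which imports large neutral amino acids, from 96.3 to 16.7 FPKM. CTR replicate 4 was the lowest CTR library for 16 and CTR replicate 6 the highest for 14 of these 20 genes, as they were for the cytosolic synthetases. These 2 libraries also stood apart in marker genes. CTR replicate 4 was the highest CTR library for 9 of 10 endothelial markers and CTR replicate 6 the lowest for 7, with sums of 273 and 185 FPKM. For 7 tested fibroblast markers, CTR replicate 4 was the highest for 3 and CTR replicate 6 the lowest for 3, with CTR replicate 1 the lowest for the other 4. For 4 tested smooth muscle markers, CTR replicate 6 was the highest for 3 and CTR replicate 4 the lowest for 2, with sums of 1428 and 468 FPKM. CTR replicate 4 was the lowest CTR library for all 5 proliferation genes, and CTR replicate 1 was the highest for all 5. Among 5 lung epithelial markers, CTR replicate 4 was the highest for 3 and CTR replicate 6 for 2. Whether these markers have a part in the order of the libraries, or the amino-acid response genes in the change of the synthetases, was not tested.

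Markers of other cells and states also differed between the groups. None of the 10 macrophage markers, all higher in dKO, was at 0 in all libraries. Of 7 tested fibroblast markers, 3 were lower in dKO, namely Col1a1, Col1a2 and Col3a1, and 1 was higher, namely Dcn at 17.8 against 6.82 FPKM. Pdgfra, Fn1 and Postn did not pass the test, and the sums of all 8 are given at the start. Among all tested genes, 32.6% were lower and 20.4% higher. Of 5 proliferation genes, 3 were lower, with sums of 37.9 to 54.5 FPKM in dKO against 43.1 to 145 FPKM in CTR. Their part in the change of the synthetases was not tested.

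Some members share exons with other genes in the GENCODE vM39 annotation, so that part of their fragments may belong to the neighbour if strand was not used. The shared exon stretch was 4080 bases for Cars2 with Naxd, 3827 for Mars2 with Boll, 3594 for Yars2 with Dnm1l, 3576 for Mars1 with Ddit3 and 2884 for Iars2 with Rab3gap2. Ddit3, a gene of the amino-acid response, had 94.4 FPKM in CTR and 55.9 FPKM in dKO, with overlapping groups, and did not pass the test (adjusted p = 0.0749, limma with Benjamini-Hochberg). Iars1 also matches Gm4849 over 1656 bases at 96.0% identity. Yars1 shares 1536 bases with Nhsl3 and Farsb 1348 bases with Sgpp2, both on the other strand. Aars1 shares 1326 bases with Exosc6 on the same strand, which a stranded count could not separate either. The values of these members are therefore less certain than the rest.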

How the data were processed

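Total RNA of MLECs was extracted with Trizol and sequenced as paired reads. The authors trimmed the reads, aligned them to mm39 with STAR, kept uniquely aligned reads, aligned these again and deposited FPKM values for each gene and library. The submitters' processing notes also list Bowtie2 2.2.3, HISAT2 2.1.0, TopHat2 and DESeq2. The counting program, the annotation and the strand setting are not given in the sources used here. The extraction label names another kit and another tissue than the study's methods.

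As the deposited values are FPKM, a count model was not the main test, and the DESeq2 test of the study was replaced by limma 3.58.1 (R 4.3.3, lmFit and eBayes with a trend, two-sided, no covariates) on log2(FPKM + 1), computed here with a pseudocount of 1 for genes of at least 1 FPKM in at least 6 of 12 libraries. A log2 fold change is on that scale and understates the change of low genes. p was adjusted by Benjamini-Hochberg over the 12467 genes tested, and a gene was called at an adjusted p under 0.05. Ratios of gene pairs were compared by an exact two-sided permutation test over the libraries. On simulated data with known answers, 96 of 97 genes with a log2 change of 1 and 82 of 96 with a change of 0.5 were recovered, and 11 of 12372 unchanged genes were called. In the simulation 200 genes were changed, and all genes varied independently with the same set spread. The libraries here varied together across genes, so these shares need not hold for them.

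Fragment numbers were recovered from the FPKM by a search over gene lengths from 20 to 150000 bases, a number being taken as whole within 1e-05 plus 5e-08 for each fragment. A length was found for all 25415 genes above 0 in at least 2 libraries. The match of the other 3274 genes, above 0 in 1 library, says little, since a search this wide finds some length for a single value. The recovered length equalled that of the annotation for 8593 genes. Sums over genes were within 1% of each library's total. They served for the depth and for 1 alternative, a count-based fit with limma-voom. Depth intervals cover counting error only. Symbols and positions came from GENCODE vM39 (GRCm39), which matched 27706 gene identifiers and left 983 unmatched. Overlaps of exons were counted there, and near-identical transcripts were sought with BLAST 2.17.0. Promoter windows of RefSeq were matched by symbol. Tables were made in Python 3.11.15 with pandas 2.3.3 and NumPy 2.4.6, the recovery used numba 0.67.0, and figures were drawn with Matplotlib 3.10.9.

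The members, the lists and the tests were chosen with earlier results of these data known. Values in full were given for the 4 cytosolic and 4 mitochondrial genes with the largest absolute log2 fold change and for the scaffold genes, and for the 4 pairs with the largest change. Iars2 and Lars2, the other members with means, and the sequences around the response core were chosen after their values were seen. Alternatives were other pseudocounts, filters, scalings and fits, and leaving out each library in turn. Some items, among them 1 of the matches of the response core, are not reported here.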

Additional observations from a re-analysis of the deposited data

Results flagged for a closer look

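Within groups of 6 libraries, 4 values stood apart from the other 5 by Dixon's criterion, out of 80 groups looked at, where chance gives about 4.0. dKO replicate 1 was high for 3 genes. Eef1e1 held 10.0 FPKM there against 4.01 to 5.54 FPKM in the other dKO libraries, Hars1 held 39.0 FPKM against 26.1 to 30.01 FPKM, and Mars2 held 1.93 FPKM against 1.33 to 1.54 FPKM. dKO replicate 4 was low for Cars1, with 12.4 FPKM against 13.4 to 14.0 FPKM in the others.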

How the results depend on the processing

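Each gene was fitted again under up to 27 alternatives, and 24 of the 38 genes kept their direction and their side of the threshold in all that could be run. These 24 were 16 cytosolic, 6 mitochondrial and 2 scaffold genes. The number of cytosolic genes that were lower lay between 15 and 18, and their median log2 fold change between -0.98 and -0.80. The number of mitochondrial genes that were lower was 5 with median-of-ratios scaling, with no filter and with quantile normalization, 4 of the 7 tested at a minimum of 5 FPKM, and 5 to 10 when 1 library was left out. Their median lay between -0.32 and -0.16. With array weights, Cars2 and Hars2 were also called lower, as was Hars2 with TPM. Iars2 was the 1 mitochondrial gene called higher with median-of-ratios scaling and with trends on gene length and GC content removed, with or without the replicate block. The number of scaffold genes that were lower was 1 with no filter and 1 to 2 when 1 library was left out. limma-voom on the recovered fragments, chosen after seeing the data, called 16 cytosolic and 9 mitochondrial genes lower.

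Some signs turned, among them that of Mars2, which was called lower at -0.18. Removing the length and GC trends gave log2 fold changes of 0.0522 for Fars2, 0.129 for Lars2 and 0.00746 for Mars2, with or without the replicate block. Median-of-ratios scaling gave 0.0128 for Fars2 and 0.0822 for Lars2, and quantile normalization gave 0.0175 for Fars2 and 0.0183 for Lars2. Lars2 stood at 0.0292 with array weights and at 0.0225 with upper-quartile scaling. Without 1 library, Fars2 ran from -0.0946 to 0.00374 and Lars2 from -0.0695 to 0.0662. The change of the log2 ratio of Sars1 to Sars2 was -0.12 with a pseudocount of 1, 0.000124 with one of 0.1 and 0.0195 with none. Without 1 library, the change ran from -0.126 to 0.0507 for Farsa to Fars2, from -0.181 to 0.00382 for Hars1 to Hars2 and from -0.0244 to 0.0934 for Rars1 to Rars2. Sp3 passed the threshold with TPM (-0.20), with array weights (-0.15) and without CTR replicate 6, its values without 1 library being -0.18 to -0.11. Only 3 cytosolic genes had the response core when the window ended at the start. The causes were not tested.

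With the replicate block, 17 cytosolic, 9 mitochondrial and 2 scaffold genes were lower. The numbers do not pair the libraries, since the correlation of same-numbered libraries was 0.436, 0.156, -0.0446, 0.565, 0.0104 and -0.108, and only for replicates 1 and 4 was the same number the best match.

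Depth limits the low mitochondrial genes most. Ears2 rested on as few as 54 fragments in a library and Pars2 on 72, against 773 for Farsa, the lowest of the cytosolic genes.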
